A study of Homo sapiens with 6 samples.

Results

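The NRF2 antioxidant programme was examined in MDA-MB-231, a long-established human breast cancer cell line with mesenchymal features, with and without knockdown of VASP, an actin elongation factor of the Ena/VASP family. The 36 genes were chosen by name, from a table of 61155 symbols, as the regulator pair NRF2 (gene NFE2L2) and KEAP1, quinone and heme enzymes, enzymes of the glutathione and thioredoxin systems, aldo-keto reductases, pentose phosphate enzymes, peroxide and superoxide scavengers and the ferritins. All 36 were found. RNA sequencing gave 3 control libraries and 3 knockdown libraries, all made from total RNA of cells grown with serum and insulin. Per the treatment notes, cells were harvested 48 hours after a transient transfection by lipid reagent. Sample titles call the groups plko and shVASP, names of a hairpin vector, while the characteristics call them negative control siRNA and VASP siRNA. Both sets of labels give the same 2 groups. They do not settle whether siRNA or a hairpin vector was used, nor then whether the 48 hours apply. No agent that stresses the cells was named for either group. The columns of the 3 controls all extend the title of 1 control sample, so it is not shown that they came from separate cultures, and p-values reflect only how far these libraries scatter, which may be technical variation.

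NRF2 is a transcription factor that KEAP1 holds in the cytoplasm and hands to a CUL3 ubiquitin ligase for destruction. When electrophiles or peroxides modify KEAP1, NRF2 accumulates, pairs with a small MAF protein and binds antioxidant response elements in genes that make glutathione, supply NADPH, reduce peroxides and quinones and store iron. Its activity is controlled mainly through the stability of the protein, which RNA counts do not measure.

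Libraries held 28856610 to 30055503 counts, so the floor of 3 counts lay between 0.0998 and 0.104 CPM, the unit of counts scaled to library size used below. VASP had 4544, 5036 and 4708 counts in control and 396, 379 and 360 in knockdown libraries (log2 fold change -3.69, SE 0.06, edgeR adjusted p = 8.3e-24). Of 8 genes listed as high in this line, 7 stood between 335 and 2050 CPM in every control library, VIM and AXL among them, and SPARC was below 0.450 CPM in all 6 libraries. Of 8 luminal or HER2 markers, ESR1, PGR, GATA3 and CDH1 were under 1 CPM in every library while ERBB2 stood at 94.1 to 109 CPM. FOXA1 was at 5.77 to 6.86, EPCAM at 4.77 to 6.64 and KRT19 at 2.95 to 3.73 CPM. The 5 blood cell markers summed to at most 0.293 CPM in any library. The 5 fibroblast and endothelial markers summed to 8.82 to 10.7 CPM in control and 8.34 to 9.54 CPM in knockdown, with DCN at 0 counts throughout. In bulk RNA, fewer cells that express a gene and less of its RNA per cell cannot be told apart.

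Together the 36 genes took 1.01%, 0.999% and 0.945% of all counts in control and 0.925%, 0.936% and 0.876% after knockdown, so no knockdown library reached the lowest control. This sum leans on the 2 ferritins, the members with the most counts, whose groups overlapped. FTL, which did not pass, averaged 3833 CPM in control and 3554 in knockdown, and FTH1 732 and 636. Of the 36, 34 had enough counts to be tested, and AKR1B10 and AKR1C2 did not. By edgeR's quasi-likelihood test, with Benjamini-Hochberg adjustment across the 16633 genes that could be tested, 4 members rose (NFE2L2, HMOX1, TXN and PRDX3), 15 fell and 15 did not pass. Across all genes 37.2% passed, 18.9% up and 18.3% down, so the members' share that rose, 11.8%, lay below the background and their share that fell, 44.1%, lay above it. The median log2 fold change was -0.12 over the 34 members and -0.01 over all genes. Groups did not overlap in 20 of the 34 members, 58.8%, against 47.6% of all genes. Whether a gene passes depends on its counts as well as its change, and members were not matched to genes of like counts. GPX1 passed at a log2 fold change of -0.16, while AKR1C1, with 13 to 24 counts, did not at -0.45. The changes were small, from -0.55 to 0.33 on the log2 scale, and AKR1B1 alone passed when the test asked for more than a 1.2-fold change (1 of 34 members, against 5.73% of all genes).

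Fold change fell with the GC content of the transcript across all genes (Spearman correlation -0.41 over 16207 genes, which share the same 6 libraries), and the members' transcripts were richer in GC, with a median of 52.3% against 47.9%. Among the 34 members themselves the same correlation was -0.08. A refit that removes the trend with GC content and transcript length in each library, called the GC correction here, left 13 members called, 5 up and 8 down, where 13.1% of all genes were up and 14.6% down. The median of the members then was -0.07 and that of all genes 0.00. After the correction the Spearman correlation of GC content with log2 fold change was -0.05 over all genes but 0.41 over the 34 members, so among the members the correction put a positive trend where there had been little, and this bears on each call gained or lost with it. Of the 15 members that fell, 7 fell in this refit and in every other alternative tried: AKR1B1, AKR1C3, TXNRD1, TKT, MGST1, PRDX2 and SOD2. Of the 4 that rose, NFE2L2, TXN and PRDX3 kept the call in every alternative. With the GC correction alone, 11 of the 19 called members kept call and sign. Of the 6187 called among all genes 3665 did, with genes lacking a GC content counted as lost. The like count over all genes was not made for the other alternatives. Whether GC content had a part in any single gene's change was not tested.

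**Figure D1:**
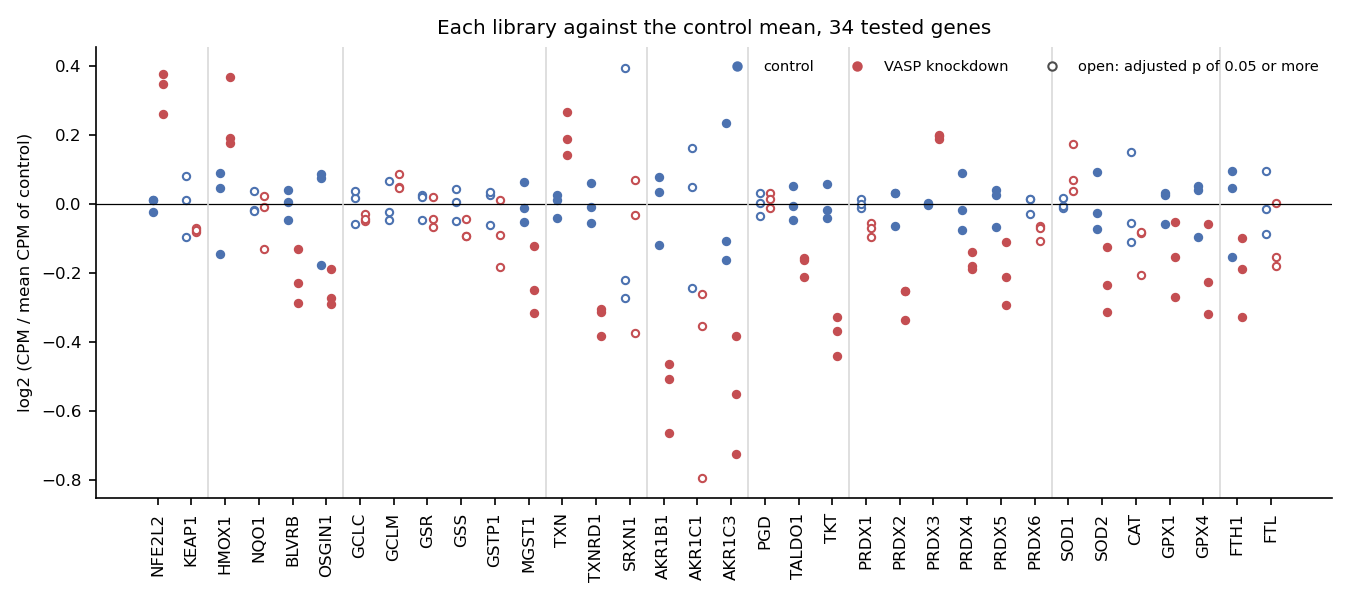
Log2 ratio of each library's CPM to the mean CPM of the 3 control libraries (y axis) for the 34 tested genes (x axis, ordered by role, with grey lines between roles). Blue points are control libraries, red points knockdown libraries, and open points genes with an adjusted p of 0.05 or more; the red points of AKR1B1, AKR1C3, TKT and TXNRD1 all lie below the blue ones, and those of NFE2L2, HMOX1, TXN and PRDX3 above them.

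NFE2L2 (chromosome 2, 177227595 to 177392697, minus strand, GRCh38) stood at 93.4, 93.3 and 91.2 CPM in control and at 111, 120 and 118 CPM in knockdown. Every knockdown library was higher than every control library, and the rise was 1.26-fold (log2 fold change 0.33, SE 0.05, adjusted p = 1.3e-05; log2 fold change 0.28 with the GC correction). Of its exon bases, 18.6% are shared with AC019080.1, where fragments cannot be assigned to either gene. KEAP1, the sensor that marks NRF2 for destruction, was at 83.4, 89.9 and 94.2 CPM in control and at 84.9, 84.3 and 84.7 CPM in knockdown. The knockdown values lay inside the control range, and KEAP1 did not pass (log2 fold change -0.07, SE 0.05, adjusted p = 0.26; 0.05 with the GC correction).

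The letters of the antioxidant response element are shown next because they are what NRF2 and its MAF partner read. Promoter windows of 300 bases, 250 before and 50 after each annotated start, were found in RefSeq (GRCh38.p14) for 28 of the 36 genes, in 41 windows. The core TGACNNNGC was searched on both strands and occurred in 7 of the 41 windows, 17.1%, against 13.3% of all 35116 promoters of that length. The 7 windows belong to 6 genes, TXNRD1, MGST1, GCLM, GSTP1, KEAP1 and PGD, and are printed 5′ to 3′ on the gene's strand with the matched bases in capitals. Positions count from the annotated start, with the base before it as -1.

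TXNRD1 chr12:104286782-104287081 plus strand: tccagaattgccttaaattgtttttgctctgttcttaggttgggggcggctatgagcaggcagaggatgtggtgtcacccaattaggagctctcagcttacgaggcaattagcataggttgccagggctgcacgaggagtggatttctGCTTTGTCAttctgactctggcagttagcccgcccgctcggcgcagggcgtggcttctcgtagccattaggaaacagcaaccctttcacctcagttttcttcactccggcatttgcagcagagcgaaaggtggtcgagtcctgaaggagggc
TXNRD1 chr12:104215529-104215828 plus strand: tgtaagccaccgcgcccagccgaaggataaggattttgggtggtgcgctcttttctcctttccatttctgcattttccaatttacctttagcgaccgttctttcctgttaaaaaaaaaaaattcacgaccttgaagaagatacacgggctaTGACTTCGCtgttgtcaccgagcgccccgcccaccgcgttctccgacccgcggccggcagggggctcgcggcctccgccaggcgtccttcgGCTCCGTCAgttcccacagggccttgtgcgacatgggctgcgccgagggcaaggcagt
MGST1 chr12:16346865-16347164 plus strand: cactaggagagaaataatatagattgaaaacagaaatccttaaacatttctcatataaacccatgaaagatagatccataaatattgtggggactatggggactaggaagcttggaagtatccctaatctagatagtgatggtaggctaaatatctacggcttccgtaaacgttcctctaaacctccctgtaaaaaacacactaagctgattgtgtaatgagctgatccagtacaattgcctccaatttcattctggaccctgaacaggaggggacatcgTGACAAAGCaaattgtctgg
GCLM chr1:93909381-93909680 minus strand: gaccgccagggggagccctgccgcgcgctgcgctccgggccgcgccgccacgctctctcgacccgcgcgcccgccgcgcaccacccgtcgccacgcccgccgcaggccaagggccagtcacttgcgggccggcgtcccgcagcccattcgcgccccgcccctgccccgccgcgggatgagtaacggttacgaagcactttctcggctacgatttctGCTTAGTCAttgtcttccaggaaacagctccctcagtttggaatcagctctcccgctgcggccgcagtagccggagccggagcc
GSTP1 chr11:67583562-67583861 plus strand: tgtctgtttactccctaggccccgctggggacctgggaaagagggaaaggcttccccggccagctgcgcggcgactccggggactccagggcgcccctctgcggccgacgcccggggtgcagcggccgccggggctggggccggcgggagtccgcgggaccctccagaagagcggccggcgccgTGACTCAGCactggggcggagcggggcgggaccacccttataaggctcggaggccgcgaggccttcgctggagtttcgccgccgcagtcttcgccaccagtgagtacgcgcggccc
KEAP1 chr19:10502722-10503021 minus strand: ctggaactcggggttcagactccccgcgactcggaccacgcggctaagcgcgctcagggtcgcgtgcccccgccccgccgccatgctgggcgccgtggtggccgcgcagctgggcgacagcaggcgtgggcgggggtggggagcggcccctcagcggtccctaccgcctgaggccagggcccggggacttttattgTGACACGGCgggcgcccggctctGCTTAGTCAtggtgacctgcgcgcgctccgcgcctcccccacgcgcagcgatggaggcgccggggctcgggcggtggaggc
PGD chr1:10398814-10399113 plus strand: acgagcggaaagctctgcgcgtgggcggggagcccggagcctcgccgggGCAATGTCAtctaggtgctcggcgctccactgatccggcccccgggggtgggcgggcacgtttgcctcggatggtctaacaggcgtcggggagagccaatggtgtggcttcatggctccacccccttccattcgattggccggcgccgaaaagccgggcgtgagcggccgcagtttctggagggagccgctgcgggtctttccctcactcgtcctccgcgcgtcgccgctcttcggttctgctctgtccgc

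In the GSTP1 window the match at -66 is TGACTCAGC, which also contains the AP-1 letters TGACTCA, and it was the only one of the 41 windows with that fuller form, found in 0.561% of all promoters. The upstream TXNRD1 window has matches at -99 and -8, KEAP1 has them at -54 and -31, GCLM has one at -34, and the MGST1 match lies 31 bases into the transcript. MGST1 and KEAP1 also have windows without the letters. Of the 6 genes with the letters in any window, TXNRD1 and MGST1 fell, none rose and 4 did not pass, with a median log2 fold change of -0.08. Among the 21 tested genes whose windows lack them, 12 fell, 3 rose and 6 did not pass, with a median of -0.18. Of all genes tested 18.3% fell and 18.9% rose. A match describes letters and not binding, and elements farther from the start lie outside these windows.

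Among the quinone and heme enzymes, HMOX1, which opens the heme ring and releases iron, stood at 11.3, 11.7 and 9.92 CPM in control and 12.5, 14.1 and 12.4 CPM in knockdown, from 287 to 418 counts. All 3 knockdown libraries were above all 3 controls, and HMOX1 rose by 0.25 on the log2 scale, or 1.19-fold (SE 0.09, adjusted p = 0.027). That call was lost without control library 3 (log2 fold change 0.18), without knockdown library 2 (0.20) and with DESeq2 (adjusted p = 0.05), while the GC correction gave 0.35. NQO1, the NADPH quinone reductase often used as a readout of NRF2, was at 358, 345 and 344 CPM in control and 347, 354 and 319 CPM in knockdown. These ranges overlap, and NQO1 did not pass (log2 fold change -0.04, SE 0.05, adjusted p = 0.59).

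BLVRB, which reduces biliverdin and flavins, fell from 42.0, 43.1 and 40.5 CPM to 35.7, 38.3 and 34.3 CPM (log2 fold change -0.21, SE 0.06, adjusted p = 0.0054), with no overlap. OSGIN1, a growth-inhibitory gene induced by oxidative stress, went from 12.4, 12.3 and 10.3 CPM to 9.55, 10.2 and 9.67 CPM (log2 fold change -0.25, SE 0.09, adjusted p = 0.030). Neither call held with the GC correction (log2 fold changes -0.11 and -0.07), and OSGIN1 lost it in 5 of the 6 fits that leave out a library, all but the one without control library 3, with log2 fold changes of -0.27 to -0.20. Its call was also lost with DESeq2 (adjusted p = 0.061) and with no low-count filter in edgeR (adjusted p = 0.059).

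Glutathione enzymes moved little. GCLC and GCLM are the catalytic and modifier subunits of glutamate-cysteine ligase, the rate-limiting step of glutathione synthesis. GCLC stood at 34.1, 32.3 and 34.6 CPM in control and 32.5, 33.0 and 32.6 CPM in knockdown, and GCLM at 75.3, 74.2 and 80.2 and then 81.2, 79.2 and 79.0 CPM. Both pairs of ranges overlap, and neither subunit passed (log2 fold changes -0.04, SE 0.06, and 0.06, SE 0.05). GSS, which adds the glycine, GSR, which regenerates reduced glutathione, and the cytosolic transferase GSTP1 had log2 fold changes of -0.08, -0.03 and -0.08 and did not pass either.

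MGST1, a membrane-bound glutathione transferase with peroxidase activity, was the exception among these 6. It fell from 201, 186 and 191 CPM to 155, 177 and 162 CPM, a 1.17-fold difference (log2 fold change -0.23, SE 0.05, adjusted p = 0.0014), with all 3 knockdown libraries below the lowest control. The GC correction gave -0.32.

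Thioredoxin and its reductase went in opposite directions. TXN, thioredoxin, rose from 256, 247 and 259 CPM to 281, 306 and 290 CPM, a 1.15-fold difference (log2 fold change 0.20, SE 0.05, adjusted p = 0.0021). TXNRD1 (chromosome 12, 104215779 to 104350307, plus strand) encodes the selenoprotein reductase that returns thioredoxin to its reduced form at the expense of NADPH. It fell from 520, 480 and 495 CPM to 404, 401 and 382 CPM, a 1.26-fold difference (log2 fold change -0.33, SE 0.05, adjusted p = 1.4e-05). In both genes the groups were apart, and both kept their call in every alternative, at 0.14 for TXN and -0.39 for TXNRD1 with the GC correction. SRXN1, sulfiredoxin, which repairs overoxidised peroxiredoxins, had 62 to 104 counts and did not pass (log2 fold change -0.10, SE 0.18, adjusted p = 0.70). It shares 84.95% of its exon bases with AL121758.1, where fragments cannot be assigned to either gene, so its level may be an underestimate.

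The largest decreases were in the aldo-keto reductases, which reduce aldehydes and ketones, sugars and steroids among them, with NADPH. AKR1B1, aldose reductase (chromosome 7, 134442356 to 134459284, minus strand), stood at 317, 308 and 277 CPM in control and 218, 212 and 190 CPM in knockdown. The highest knockdown library was well below the lowest control, and AKR1B1 fell 1.46-fold (log2 fold change -0.54, SE 0.06, adjusted p = 3.0e-07; -0.49 with the GC correction). AKR1C3, a 17-beta-hydroxysteroid and prostaglandin reductase (chromosome 10, 5035354 to 5107686, plus strand), was weaker, with 259, 203 and 195 counts in control and 158, 171 and 134 in knockdown. Here too no knockdown library reached the lowest control. AKR1C3 also fell 1.46-fold (log2 fold change -0.55, SE 0.12, adjusted p = 0.00091; -0.66 with the GC correction).

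The remaining 3 were near the limit of detection. AKR1C1 had 24, 18 and 22 counts in control and 13, 17 and 18 in knockdown and did not pass (log2 fold change -0.45, SE 0.27, adjusted p = 0.20). AKR1C2, too low to be tested, had 5, 13 and 7 counts and then 2, 2 and 3. AKR1B10 had 0, 1 and 2 counts and then 1, 0 and 2. AKR1C1, AKR1C2 and AKR1C3 are close copies of each other in one cluster, and fragments could align to more than 1 of them, so their levels are uncertain. The log2 ratio of AKR1C1 to AKR1C2 counts averaged 1.40 ± 0.87 (SD, n = 3) in control and 2.55 ± 0.23 (SD, n = 3) in knockdown, a difference of 1.15 (exact two-sided permutation p = 0.10, the smallest that 3 against 3 libraries allow). Without control library 2 that difference was 0.68.

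Levels can be compared between genes only per length, in TPM, where counts are divided by the length of a gene's merged exons before scaling. FTL led with 12391, 12206 and 11319 TPM in control and 11807, 11600 and 11064 TPM in knockdown, and FTH1 followed with 1029, 1057 and 897 and then 1019, 843 and 829 TPM. The light chain of ferritin thus stood far above the rest of the 36 genes. FTH1 shares 63.2% of its exon bases with BEST1, so its TPM may be an underestimate and the gap to FTL too large. GPX1 had 766, 820 and 750 TPM in control and 768, 727 and 676 in knockdown, TXN 669, 687 and 701 and then 830, 797 and 818, and GPX4 599.8, 644 and 567 and then 566, 560.4 and 506. The control ranges of these 5 genes did not overlap from one to the next. PRDX1 had 368, 384 and 377 TPM and then 397, 347 and 368, NQO1 318, 326 and 316 and then 349, 314 and 306, and PRDX5 302, 318 and 290.5 and then 288, 272 and 259. Among these 3 only the control ranges of NQO1 and PRDX5 overlapped. PRDX1 and NQO1 share 25.2% and 19.35% of their exon bases with other symbols, so their TPM may be underestimates too. At the other end SRXN1 averaged 2.76 TPM in control, AKR1C1 0.228, AKR1C2 0.122 and AKR1B10 0.0537.

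**Figure D2:**
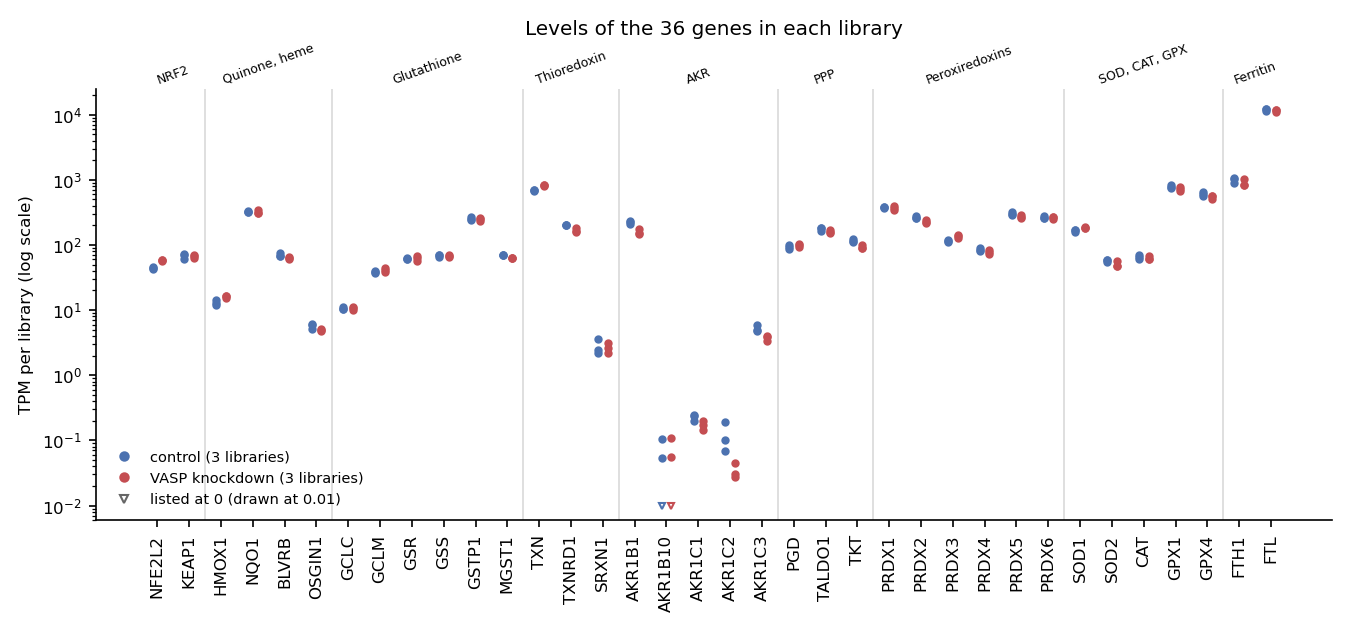
RNA level in TPM (a level per exon length; y axis, log scale) of the 36 genes in each of the 3 control (blue) and 3 knockdown (red) libraries, ordered by role; open triangles mark a count of 0. FTL stood highest at a control mean of 11972 TPM and AKR1B10 lowest at 0.0537 TPM, and the spread between genes is far larger than that between groups.

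Pentose phosphate enzymes regenerate NADPH, on which glutathione reductase and thioredoxin reductase depend, or recycle its sugars. TKT, transketolase (chromosome 3, 53224712 to 53256052, minus strand), fell from 399.7, 421 and 393 CPM to 313, 322 and 298 CPM, a 1.30-fold difference (log2 fold change -0.38, SE 0.05, adjusted p = 2.8e-06; -0.31 with the GC correction). TALDO1, transaldolase, which works beside it in the nonoxidative branch, fell from 180, 186 and 193 CPM to 167, 166 and 161 CPM (log2 fold change -0.18, SE 0.05, adjusted p = 0.0043), a call that was lost with the GC correction (-0.10). In both genes no knockdown library reached the lowest control. PGD, the second NADPH-producing enzyme of the oxidative branch, stood at 111, 117 and 114 CPM and then 113, 117 and 115 CPM and did not pass (log2 fold change 0.01, SE 0.05, adjusted p = 0.88).

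Peroxiredoxins reduce peroxides through a reactive cysteine that thioredoxin recharges. All 6 had groups that did not overlap, as did 47.6% of all genes, and 1 rose, 3 fell and 2 did not pass. PRDX3, the mitochondrial member, rose from 141, 142 and 142 CPM to 163, 163 and 162 CPM (log2 fold change 0.19, SE 0.05, adjusted p = 0.0014; 0.12 with the GC correction). Its libraries were very even within each group, with SDs of 0.361 CPM in control and 0.650 CPM in knockdown. PRDX2, an abundant cytosolic member, fell from 203, 203 and 190 CPM to 167, 167 and 158 CPM (log2 fold change -0.28, SE 0.05, adjusted p = 7.3e-05; -0.19 with the GC correction).

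PRDX4, the endoplasmic reticulum member, fell from 56.8, 54.6 and 61.2 CPM to 52.2, 50.5 and 50.8 CPM (log2 fold change -0.17, SE 0.06, adjusted p = 0.017), and lost the call without control library 3 (-0.12), knockdown library 2 (-0.15) or knockdown library 3 (-0.16), and with no low-count filter (adjusted p = 0.051). PRDX5, found in mitochondria, peroxisomes and cytosol, fell from 98.5, 97.5 and 91.4 CPM to 82.8, 88.8 and 78.3 CPM (log2 fold change -0.20, SE 0.05, adjusted p = 0.0041). With the GC correction neither passed, at -0.12 for PRDX4 and -0.03 for PRDX5. PRDX1 stood at 210, 206 and 208 CPM and then 200, 198 and 194 CPM (log2 fold change -0.07, SE 0.05, adjusted p = 0.21), and shares 25.2% of its exon bases with MMACHC. PRDX6, the single-cysteine member that uses glutathione, had a log2 fold change of -0.08 (SE 0.05, adjusted p = 0.18), and -0.12 with the GC correction, where it passed (adjusted p = 0.047).

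Superoxide dismutases turn superoxide into peroxide, and the 2 measured here leaned in opposite directions. SOD2, the mitochondrial manganese enzyme, fell from 406, 374 and 362 CPM to 349, 324 and 307 CPM (log2 fold change -0.22, SE 0.05, adjusted p = 0.0026; -0.31 with the GC correction). Its annotated exons cover 18144 bases and share 437 of them with WTAP and 133 with ACAT2. SOD1, the cytosolic copper and zinc enzyme, was at 122, 122 and 124 CPM in control and 126, 138 and 129 CPM in knockdown. The groups were apart, but SOD1 passed only with the GC correction (log2 fold change 0.10, SE 0.05, adjusted p = 0.13; 0.15 and adjusted p = 0.014 corrected). Whether SOD1 and SOD2 differ in their response was not tested.

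CAT, catalase, did not pass (log2 fold change -0.12, SE 0.06, adjusted p = 0.12), with control library 1 highest at 96.7 CPM and the other 5 libraries between 75.6 and 84.0 CPM. Without control library 3 it passed at -0.17, and without control library 1 it was at -0.04. The glutathione peroxidases GPX1 and GPX4 are selenoproteins, and GPX4 is the enzyme that clears lipid peroxides and restrains ferroptosis. GPX1 went from 344, 346 and 325 CPM to 304, 327 and 281 CPM (log2 fold change -0.16, SE 0.05, adjusted p = 0.025). GPX4 went from 460, 464 and 419 CPM to 382, 430 and 358 CPM (log2 fold change -0.20, SE 0.06, adjusted p = 0.013). Both pass by the test although knockdown library 2 overlaps control library 3 in each. Both lost the call without control library 1 or 2 and without knockdown library 1 or 3, at -0.15 to -0.10 for GPX1 and -0.18 to -0.14 for GPX4. Both also lost it with the GC correction, where GPX1 turned to 0.06 and GPX4 was at -0.02; their transcripts, at 64.2% and 62.5% GC, are among the richest of the members.

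Ferritin heavy and light chains form the shell in which cells store iron. FTH1 stood at 783, 756 and 658 CPM in control and 684, 642 and 583 CPM in knockdown, with the groups overlapping. FTH1 fell by the test (log2 fold change -0.20, SE 0.07, adjusted p = 0.021), but lost the call without control library 1 or 2 or knockdown library 2 or 3 (-0.20 to -0.14) and with the GC correction (-0.17, adjusted p = 0.067). FTL stood at 4098, 3793 and 3608 CPM and then 3443, 3839 and 3381 CPM and did not pass (log2 fold change -0.11, SE 0.06, adjusted p = 0.19). The log2 ratio of FTH1 to FTL counts differed by -0.09 between groups, within the spread of the libraries (exact two-sided permutation p = 0.30). Leaving out knockdown library 1 gave -0.17, leaving out knockdown library 2 gave -0.04, and leaving out control library 2 gave -0.06. FTH1 shares 63.2% of its exon bases with BEST1, and its 24 pseudogene symbols took 3.06% to 4.70% of the counts of gene and pseudogenes together, so its level may be an underestimate.

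**Figure D3:**
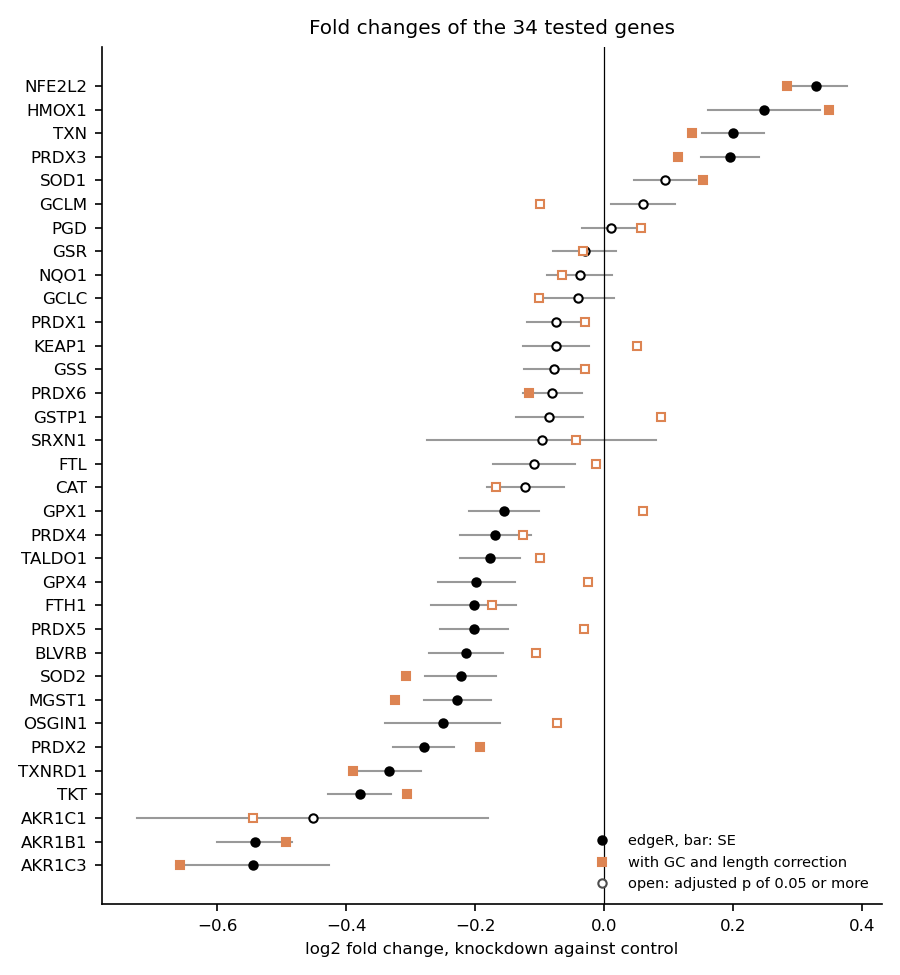
Log2 fold change of knockdown against control (x axis) for the 34 tested genes, sorted on the y axis. Black circles are edgeR estimates with bars of 1 SE, orange squares the estimates with the GC correction, and open symbols have an adjusted p of 0.05 or more; GPX1, GSTP1 and KEAP1 move from below 0 to above it, and AKR1B1, AKR1C3, TKT and TXNRD1 stay at or below -0.31.

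Beyond the 36 genes, 138 others of the same pathways were listed, of which 120 could be tested: 17 rose, 37 fell and 66 did not pass. Their share that rose was 14.2% and their share that fell 30.8%, against the 18.9% and 18.3% of all genes given above, with a median log2 fold change of -0.06. The lists were drawn up with earlier results of these data known, so these shares are a description and no independent check of the members. With the GC correction 13 of the listed genes rose and 31 fell, where 13.1% of all genes rose and 14.6% fell. Among 17 tested further NRF2 targets 9 fell (52.9%) and none rose by edgeR (median -0.17). Of these 9, 5 kept the call with the GC correction, as did 3665 of the 6187 called among all genes. ABCC3, an exporter of conjugates, fell by 0.59 on the log2 scale from 120 ± 13.7 to 79.8 ± 6.14 CPM (SD, n = 3 each, adjusted p = 0.00011), PTGR1, a prostaglandin and enone reductase, fell by 0.41 and TRIM16L by 0.37, and ABCC1, which exports glutathione, fell by 0.24 but did not pass with the GC correction.

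Of 15 partners and relatives of NRF2, 5 fell (33.3%, against 18.3% of all genes) and 2 rose (13.3%, against 18.9%). MAFG, a small MAF protein that dimerises with NRF2, fell from 108 ± 2.38 to 77.5 ± 0.874 CPM (SD, n = 3 each, log2 fold change -0.48, adjusted p = 4.6e-08). The small MAF genes did not all go the same way: MAFK also fell, while MAFF rose. NFE2L1, a relative of NRF2 that drives proteasome genes, fell by 0.30 on the log2 scale, TRIM16 fell by 0.45, and CUL3, the ligase scaffold that works with KEAP1, rose by 0.33. Pentose phosphate and NADPH genes had 4 of 13 down (30.8%) and 3 up (23.1%). The largest change there was in NADK, the cytosolic kinase that makes NADP from NAD, which fell from 71.3 ± 2.11 to 40.5 ± 1.42 CPM (SD, n = 3 each, log2 fold change -0.82, adjusted p = 3.1e-11). H6PD, the endoplasmic reticulum counterpart of glucose-6-phosphate dehydrogenase, fell by 0.55 on that scale, NADK2, the mitochondrial NAD kinase, fell by 0.31, and RPE rose by 0.32.

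Other glutathione genes were mixed, with 8 of 29 up (27.6%, against 18.9% of all genes) and 6 down (20.7%, near the 18.3% of all genes). CHAC1, which breaks down glutathione, rose from 35.3 ± 2.28 to 48.5 ± 0.846 CPM (SD, n = 3 each, log2 fold change 0.46, adjusted p = 1.9e-06). GGCT rose by 0.47 on the log2 scale, GLRX2, a mitochondrial glutaredoxin, rose by 0.34 and GGT5, a cell-surface glutamyltransferase, fell by 0.51. Of 12 thioredoxin-related genes 16.7% rose and 25.0% fell: 2 rose, TMX1 by 0.32 and SESN1 by 0.31, and 3 fell, SESN3 by 0.23, TXNRD2 by 0.23 and TXNIP, which binds thioredoxin and is named here after its value was seen, by 0.91 (SE 0.18, adjusted p = 0.016). TXNIP did not pass the test for more than a 1.2-fold change (adjusted p = 0.09). With the GC correction neither SESN1 nor TXNRD2 passed (0.23 and -0.07).

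Of 8 further superoxide and peroxide enzymes 3 fell (37.5%, against 18.3% of all genes) and none rose by edgeR. PXDN, a secreted peroxidase that crosslinks type IV collagen, fell from 335 ± 14.8 to 237 ± 13.0 CPM (SD, n = 3 each, log2 fold change -0.50, adjusted p = 9.4e-08). GPX3 and SOD3, both secreted, fell by 0.22 and 0.26, and SOD3 did not pass with the GC correction (0.04). Without the GC correction, heme and iron genes lay near the background in their share that fell, 21.1%, and 10.5% rose, against 18.9% of all genes. They had 4 of 19 down, with PPOX by 0.34, STEAP3 by 0.26 and ACO1 by 0.23. Of the 2 up, one was NCOA4, the receptor that delivers ferritin to lysosomes, by 0.18. With the GC correction neither of those 2 was called up, and 6 of the heme and iron genes fell, where 14.6% of all genes fell. Of 7 other aldo-keto reductases 3 fell (42.9%), AKR7A2 by 0.32, AKR1A1 by 0.25 and KCNAB2 by 0.20, and KCNAB2 did not pass with the GC correction. HMOX2, the constitutive relative of HMOX1, had 0 counts in every library; its exons are annotated on a further sequence besides the chromosome, so fragments could align to both, and its level cannot be read from these counts.

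**Figure D4:**
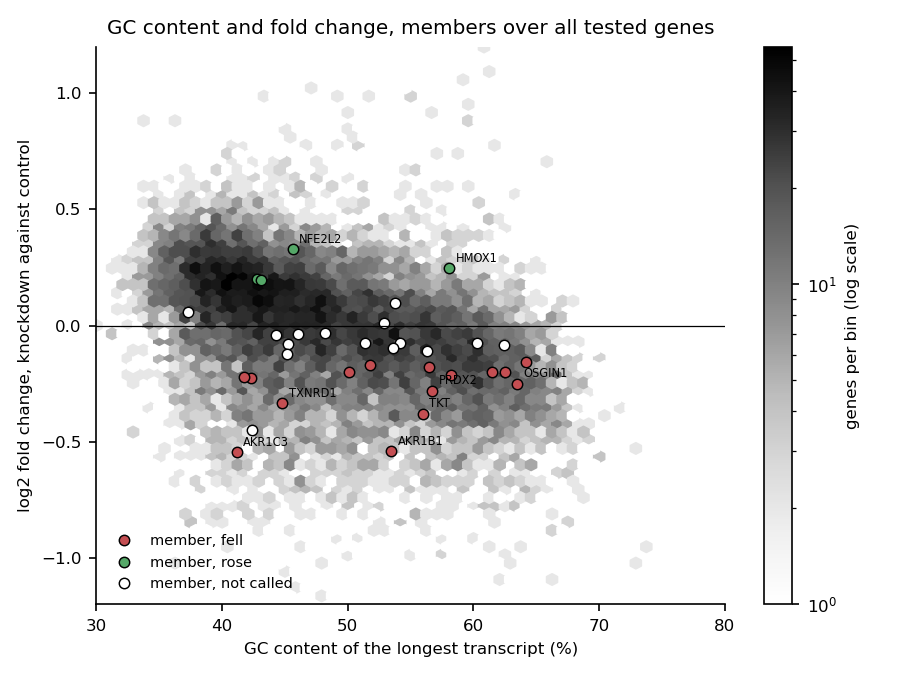
GC content of the longest transcript (x axis, percent) against log2 fold change (y axis) for all tested genes as grey hexagons shaded by number on a log scale, with the 34 members as circles: red fell, green rose, white did not pass and genes beyond the axes are not drawn. The 8 called members with the largest fold changes are named; the grey cloud slopes downward, at a Spearman correlation of -0.41, while the members show -0.08.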

How the data were processed

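Per the file header, the deposited counts are whole numbers of read pairs per gene symbol, made by the authors with featureCounts 1.6.4 over exons of GENCODE release 32 (GRCh38). The header shows no option for strand or for fragments with several alignments. The submitters' processing notes also name Trim Galore 0.6.4, STAR 2.7.1a and hg38, without the settings used. The last count column is listed in the file like the others and was analysed as counts. Merged exon lengths, the other deposited column used, served for TPM only.

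Control columns were placed by group, since their names match no single control sample; knockdown columns match the titles. Libraries held 28856610 to 30055503 counts. Genes were filtered by filterByExpr, scaled by TMM and tested with edgeR 4.0.16 (quasi-likelihood, limma 3.58.1, R 4.3.3), group as the sole term, Benjamini-Hochberg adjustment over 16633 genes, threshold 0.05. The SE is the log2 fold change divided by the root of F. A second test asked for a change beyond 1.2-fold (glmTreat). Alternatives were DESeq2 1.42.0, its size factors, upper-quartile scaling, other filters, each library left out, and a correction for GC content and length (splines with 5 degrees of freedom per library; GC content from GENCODE release 29, matched for 97.4% of tested genes). The pipeline was tested on simulated data. All 36 genes are accounted for. Called ones and the 8 with the highest control TPM get values per library. Each pathway list names up to 4 called genes with the smallest p. MAFK, MAFF, TXNIP and HMOX2 are named outside that rule. The genes, lists and tests were chosen with earlier results of these data known. Intervals and floors cover counting error only.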

Additional observations from a re-analysis of the deposited data

How the results depend on the processing

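Over the alternatives, 13 to 19 members were called (14 to 18 with a library left out), 40 to 59 of the pathway genes and 4479 to 6399 of all genes. The number of members tested differed with the filter. With no low-count filter AKR1B10 and AKR1C2 entered the fit, and 18 members were called, 4 up and 14 down. The down calls of that fit include AKR1B10 or AKR1C2, both at very few counts. Of the 19 called members, 10 kept call and direction in every alternative run, and the like count over all genes was not made. The number of members beyond 1.2-fold was 1, and became 3 with upper-quartile scaling, 2 with the filter of 1 CPM in 3 libraries, 3 with the GC correction and 1 to 3 with a library left out. With upper-quartile scaling 2702 of all genes rose and 3402 fell. Signs turned for members that did not pass: PGD at -0.013 with upper-quartile scaling and, with the GC correction, KEAP1 at 0.051, GCLM at -0.10 and GSTP1 at 0.088; the called GPX1 turned to 0.06. With a library left out PGD ranged from -0.005 to 0.027, SRXN1 from -0.215 to 0.15 and NQO1 from -0.057 to 0.009. The cause was not tested. DESeq2 gave no adjusted p for AKR1C1. The difference in the AKR1C1 to AKR1C2 ratio ranged from 0.677 to 1.528 with a library left out, and that in the FTH1 to FTL ratio from -0.168 to -0.043. No paired analysis was possible because the control columns cannot be matched to the replicate numbers in the labels: each extends the title of 1 control sample, and nothing shows that its last digit pairs it with a knockdown library. Depth limits SRXN1, AKR1C1, AKR1C2 and AKR1B10, where counts are few.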
